A study of Mus musculus with 28 samples.

Results

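The 10 genes described here are matrix and uptake genes of the primitive endoderm, the extraembryonic cell layer that forms beside the epiblast: Lama1, Lamb1 and Lamc1 (laminin chains), Col4a1 and Col4a2 (collagen IV chains), Sparc, Pdgfra, Dab2, Cubn and Amn. They were chosen by name and not by any measured value, though earlier results of these data were known. They are 10 of 21887 protein-coding genes on the assembled chromosomes. For each gene, the CUT&RUN consensus regions of the histone variant H3.3 and of H3K27ac (acetylation of lysine 27 of histone H3) were taken from the gene body and 50 kb on either side, a span called the window below. The windows held 9 of 5430 H3.3 regions and 78 of 57844 H3K27ac regions. The 28 libraries of the series came from the male mouse embryonic stem cell line E14, grown on gelatin with serum and LIF. The protocol also describes a medium with 2 added inhibitors (2i) without saying which medium these libraries had. Besides H3.3 and H3K27ac they profiled H3K122ac and an antibody-free control, in wildtype cells (2 libraries per target) and in 4 genotypes of the H3.3 genes H3f3a and H3f3b. The mutant genotypes are labelled H3f3a_AA_H3f3b_WTWT, H3f3a_WTWT_H3f3b_AA, H3f3a_WTA_H3f3b_AA (1 library per target each) and H3f3a_AA_H3f3b_WTA (2 clones), where the series title names the substitution K122A in H3.3. The lists give positions only, and no library or genotype can be read from them. No comparison of mutant with wildtype cells was therefore made. Depth is unknown, no count can be given per replicate, and no statistical test was run. All coordinates are mm10.

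Primitive endoderm cells lay down the first basement membranes of the embryo. In that sheet, laminin trimers polymerise at the cell surface, collagen IV forms a crosslinked network beside them, and the collagen-binding glycoprotein SPARC assists its assembly. The same cells take up maternal protein through cubilin and its membrane anchor amnionless, with DAB2 linking receptors to the clathrin coat, and they carry the PDGF receptor alpha as a surface marker. Embryonic stem cells correspond to the epiblast, the sister lineage. H3K27ac is a mark of active promoters and enhancers. H3.3 is placed in chromatin outside DNA replication, both at active genes and at CpG-rich promoters of silent developmental genes.

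The promoters that carry the contrasts below are shown from RefSeq (GRCm38.p6, whose primary chromosomes have mm10 coordinates), each running from 250 bases before to 50 bases after the start site, 5′ to 3′ on the strand of the gene, with CpG dinucleotides in capitals. Col4a2 (chr8:11312555-11312854, plus strand) and Col4a1 (chr8:11312777-11313076, minus strand) lay inside an H3.3 region, the only ones to do so among the promoters taken for 8 of the 10 genes (Lama1 and Lamc1 had none taken). Sparc (chr11:55420031-55420330, minus strand) is the only one of these inside an H3K27ac region. Pdgfra (chr5:75152001-75152300, plus strand) lay in the gap between a pair of wide H3.3 regions, and the upstream Dab2 promoter (chr15:6299539-6299838, plus strand) belongs to the gene with neither set in its window.
Col4a2: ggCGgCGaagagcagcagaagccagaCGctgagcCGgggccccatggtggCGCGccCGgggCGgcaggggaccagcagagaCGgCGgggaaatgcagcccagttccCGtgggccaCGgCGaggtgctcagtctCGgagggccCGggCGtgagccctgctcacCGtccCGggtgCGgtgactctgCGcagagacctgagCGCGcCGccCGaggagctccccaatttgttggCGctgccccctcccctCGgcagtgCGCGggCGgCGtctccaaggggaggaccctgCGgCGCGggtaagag
Col4a1: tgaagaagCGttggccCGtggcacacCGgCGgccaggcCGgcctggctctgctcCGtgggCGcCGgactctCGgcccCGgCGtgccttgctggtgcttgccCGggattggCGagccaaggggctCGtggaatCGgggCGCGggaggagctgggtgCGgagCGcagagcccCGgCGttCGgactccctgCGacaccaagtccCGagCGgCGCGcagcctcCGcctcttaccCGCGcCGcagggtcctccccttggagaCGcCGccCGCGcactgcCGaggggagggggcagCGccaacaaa
Sparc: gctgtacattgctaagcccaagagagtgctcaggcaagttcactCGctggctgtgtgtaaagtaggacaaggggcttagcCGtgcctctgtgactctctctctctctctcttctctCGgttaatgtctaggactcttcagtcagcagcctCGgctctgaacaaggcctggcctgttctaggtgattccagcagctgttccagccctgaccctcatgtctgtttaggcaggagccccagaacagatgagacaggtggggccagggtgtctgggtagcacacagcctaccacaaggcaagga
Pdgfra: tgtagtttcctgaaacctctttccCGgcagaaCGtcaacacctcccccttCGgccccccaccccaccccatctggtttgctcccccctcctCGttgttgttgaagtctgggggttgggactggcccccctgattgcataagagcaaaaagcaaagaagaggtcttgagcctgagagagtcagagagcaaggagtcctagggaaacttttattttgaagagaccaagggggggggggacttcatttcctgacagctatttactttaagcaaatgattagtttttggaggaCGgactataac
Dab2: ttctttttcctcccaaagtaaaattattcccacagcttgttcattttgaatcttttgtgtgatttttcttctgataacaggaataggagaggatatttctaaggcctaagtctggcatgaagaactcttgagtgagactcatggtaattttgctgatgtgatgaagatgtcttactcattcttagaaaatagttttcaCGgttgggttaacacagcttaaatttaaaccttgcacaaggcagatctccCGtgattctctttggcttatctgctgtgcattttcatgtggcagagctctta

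The genes did not share a single pattern. H3.3 regions lay at or near the starts of both collagen IV genes, Pdgfra and Amn and at an end of Lamc1. H3K27ac regions ran through the bodies of Lamc1, Sparc and Lamb1, while Lama1 and Cubn each had very few and Dab2 had nothing. Of the 10 genes, 6 had an H3.3 region in the window (Lamc1, Col4a1, Col4a2, Sparc, Pdgfra and Amn), against 41.3% of all protein-coding genes. H3K27ac was present in 7 windows (Lama1, Lamb1, Lamc1, Col4a2, Sparc, Cubn and Amn), against 73.2% of all genes. The H3K27ac share is close to that of all genes, and the H3.3 share is higher by a margin that was not tested. Lamc1, Col4a2, Sparc and Amn had both sets in the window (4 of 10, against 38.6%), and Dab2 alone had neither (1 of 10, against 24.1%).

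**Figure D1:**
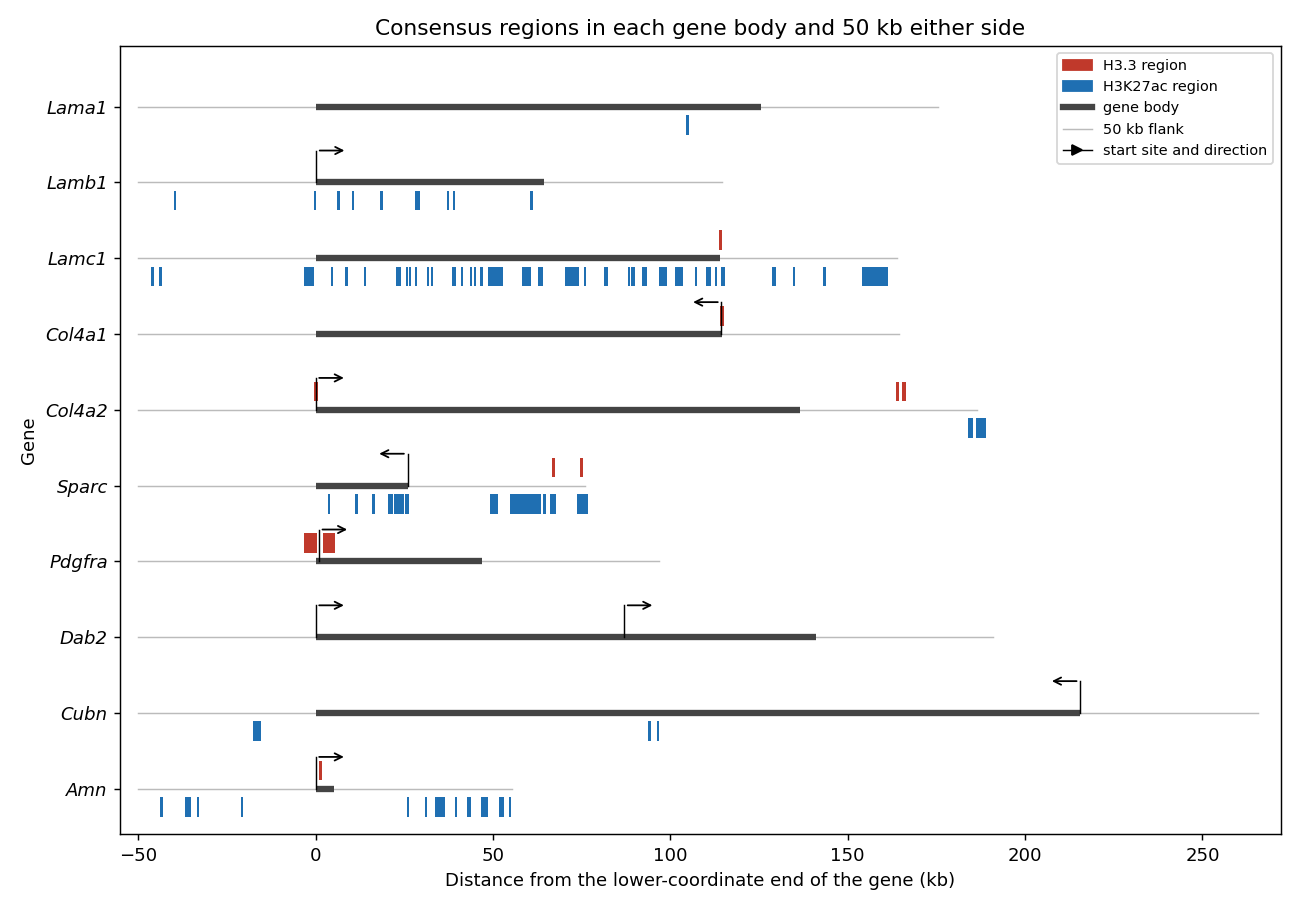
H3.3 regions (red, above each line) and H3K27ac regions (blue, below) in the windows of the 10 genes; the x axis is the distance in kb from the lower-coordinate end of each gene, the thick line is the gene body and arrows mark annotated start sites where they were taken. Regions narrower than 0.6 kb are drawn 0.6 kb wide so that they can be seen; the 40 H3K27ac regions of Lamc1 and the empty window of Dab2 are the extremes.

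Most co-occurrence in a window came from neighbouring genes. Both H3K27ac regions in the Col4a2 window lay at Naxd, both H3.3 regions in the Sparc window at the starts of Atox1 and G3bp1, and all 12 H3K27ac regions in the Amn window inside Traf3 or Cdc42bpb. When the gene body alone was considered, H3.3 touched 5 members (Lamc1, Col4a1, Col4a2, Pdgfra and Amn) and 16.1% of all genes, and H3K27ac touched 5 members (Lama1, Lamb1, Lamc1, Sparc and Cubn) and 48.4% of all genes. Lamc1 was the single gene with both sets touching its body. The members are long genes, with a median body of 114166 bp against 17169 bp over all genes, and a longer gene offers more room for a region. Among the 4319 protein-coding genes of 46885 to 215539 bp, a range that holds 8 of the members, H3.3 touched 20.3% of bodies and H3K27ac 66.6%, against 4 and 4 of those 8 members.

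**Figure D2:**
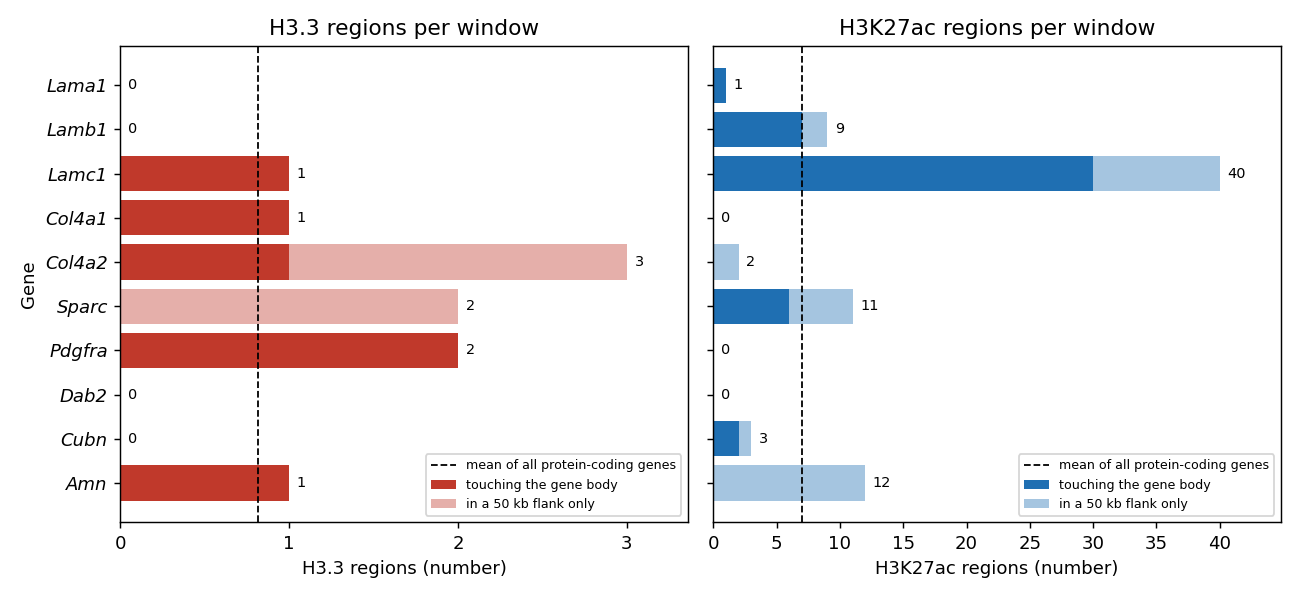
Number of H3.3 regions (left) and H3K27ac regions (right) in the window of each gene, with regions touching the gene body in full colour and those in a 50 kb flank only in pale colour. The dashed line is the mean over all protein-coding genes, 0.816 for H3.3 and 7.02 for H3K27ac; Lamc1 stands at 40 H3K27ac regions, and Lama1, Lamb1, Dab2 and Cubn at 0 H3.3 regions.

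The H3K27ac regions were unevenly spread. Lamc1 held 40 of the 78 (51.3%), and the other 9 genes together held 38. The median over the members was 2.5 H3K27ac regions per window, against 4 over all genes, and the median share of the window covered was 0.904% against 2.84%. For H3.3 the members had a median of 1 region and all genes a median of 0. All 9 H3.3 regions of the windows were wider than the median of the set: they measured 673 to 3531 bp, with a median of 872 bp against 451.5 bp. Of these 9, 5 touched a member body. The others lay at the neighbouring genes Rab20, Atox1 and G3bp1, among them the one of 872 bp. The H3K27ac regions had a median width of 783 bp, against 812 bp for that set. Of the 9 H3.3 regions 3 touched an H3K27ac region, 1 at Lamc1 and 2 in the Sparc window, compared with 47.5% of all H3.3 regions. By gene, an H3.3 region that touched H3K27ac lay in 2 of 10 windows, against 27.8% of all genes.

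Lama1, Lamb1 and Lamc1 encode the alpha, beta and gamma chains of laminin-111, the main laminin of the early embryo, and the 3 loci differed widely. Lama1 (chromosome 17, 67697127 to 67822645) had a single H3K27ac region, of 897 bp, inside the gene body at 67801425 to 67802321. It lay 20.3 kb from the higher-coordinate end of the gene. No H3.3 region lay in the window, and the nearest ones bounded a stretch of 2357 kb without H3.3. Stretches at least as long surround 21.9% of protein-coding genes.

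Lamb1 (chromosome 12, 31265146 to 31329644) had 9 H3K27ac regions in its window and no H3.3 region. The 7 that touched the gene body measured 229 to 1198 bp, with a median of 826 bp, and covered 7.06% of it; 28.8% of protein-coding genes have as large a share of the body covered. The one nearest to the start measured 294 bp (31264663 to 31264956) and ended 337 bp upstream of the start site. It is shorter than most of its set: 86% of H3K27ac regions are as wide or wider. A further region of 247 bp lay 39.7 kb upstream of the gene. The nearest H3.3 region was 234 kb from the start.

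Lamc1 (chromosome 1, 153218922 to 153332786) had the most H3K27ac regions of the 10 loci. Its window held 40 H3K27ac regions, a number that 0.343% of protein-coding genes reach, and 30 of them touched the gene body. The body regions measured 225 to 4209 bp with a median of 641 bp, covered 27.2% of the body and left no gap longer than 8688 bp between neighbours. Because Lamc1 is long, its rank by density is lower: 3.23% of genes have as many H3K27ac regions per 100 kb (18.7 for Lamc1), and 9.86% have as large a share of the window covered (21%).

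The widest H3K27ac regions of the Lamc1 body were those of 4209 bp at 153267576 to 153271784 and of 4031 bp at 153289182 to 153293212. A wider one, of 7351 bp (153372933 to 153380283), lay 40.1 kb beyond the higher-coordinate end; 1.42% of H3K27ac regions are as wide. Its nearest other protein-coding gene, Shcbp1l, was 44817 bp away.

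H3.3 at Lamc1 consisted of 1 region of 673 bp (153332754 to 153333426) that spans the higher-coordinate end of the gene. It shared 273 bp with an H3K27ac region of 412 bp (153333154 to 153333565), and another of 250 bp followed at 153333597. This was the only place among the 10 genes where the 2 sets overlapped at an end of the gene.

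Col4a1 and Col4a2 encode the alpha 1 and alpha 2 chains of the common collagen IV trimer and are transcribed away from each other on chromosome 8. Their start sites, at 11312826 and 11312805, are 21 bp apart, and the promoters printed above share 78 bp of sequence. A single H3.3 region of 1190 bp (11312312 to 11313501) covered both starts and every base of both promoters, reaching 493 bp to the lower-coordinate side of the Col4a2 start and 675 bp to the other side of the Col4a1 start. Because both genes share it, it counts once among the 9 regions and once for each gene. Of all H3.3 regions 13% are as wide.

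No H3K27ac region touched either collagen gene. The 251 kb from the lower-coordinate end of Col4a1 to the higher-coordinate end of Col4a2 lay inside a stretch of 502 kb without H3K27ac, and 20.5% of protein-coding genes lie in a stretch at least as long. The other regions of the Col4a2 window belonged to its neighbours. H3.3 regions of 843 and 1310 bp lay in Rab20, the gene of a small GTPase, the wider of them over the Rab20 start and 28.8 kb past the end of Col4a2. H3K27ac regions of 1416 and 2743 bp lay in Naxd, a metabolite repair enzyme gene, the first of them over its start, 47.5 kb past Col4a2.

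Sparc (chromosome 11, 55394159 to 55420080) combined an acetylated start with no H3.3 of its own. Its body was touched by 6 H3K27ac regions of 534 to 2635 bp that covered 27.3% of it, a share that 12.4% of protein-coding genes reach. The region over the start measured 1177 bp (55419234 to 55420410) and contained the whole promoter. It was followed within the gene by regions of 2635 bp (55416323 to 55418957) and 1387 bp (55414639 to 55416025).

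Upstream of Sparc, 5 further H3K27ac regions lay between 23.4 and 47.7 kb from the gene. The widest, of 8861 bp (55448855 to 55457715), lay in Atox1, the gene of a copper chaperone, and is exceeded or equalled by 0.876% of its set. Both H3.3 regions of the window sat entirely within H3K27ac there. The one of 737 bp covered the Atox1 start, and the one of 872 bp lay 96 bp from the start of G3bp1, which encodes a stress granule protein. The nearest H3.3 region to the Sparc start was thus 40.8 kb away.

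Pdgfra (chromosome 5, 75151322 to 75198206) was the reverse case, with wide H3.3 and no H3K27ac. Its H3.3 regions measured 3531 bp (75148175 to 75151705) and 3522 bp (75153299 to 75156820), and 2.17% and 2.19% of H3.3 regions are as wide. They flanked the annotated start site at 75152251: the first ended 546 bp upstream of it and the second began 1048 bp downstream, with 1593 bp between them. The first region also covered the lower-coordinate end of the annotated gene, which lies upstream of that start site. Together they covered 4.8% of the window, a share that 1.05% of protein-coding genes reach. The nearest H3K27ac regions lay 66052 bp below the gene and 339787 bp above it, in a stretch of 453 kb without the mark.

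The uptake genes had few regions of their own. Dab2 (chromosome 15, 6299788 to 6440715), the adaptor gene, had no region of either set in its window. From its upstream start at 6299789 the nearest H3K27ac region was 254 kb away and the nearest H3.3 region 1055 kb away, and from its downstream start at 6386748 they were 178 and 1142 kb away. The gene lay in a stretch of 519 kb without H3K27ac, and 20% of protein-coding genes lie in one at least as long.

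Cubn (chromosome 2, 13276338 to 13491876), which encodes the ligand-binding receptor cubilin, had 2 H3K27ac regions deep inside the gene. They measured 936 bp (13370086 to 13371021) and 214 bp (13372645 to 13372858), lay 120855 and 119018 bp downstream of the start and covered 0.534% of the body. The third region of the window, of 2220 bp, lay in Rsu1, a neighbouring Ras suppressor gene. Cubn had the longest stretch without H3.3 of the 10 genes, 4577 kb, which 10.2% of protein-coding genes equal or exceed.

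Amn (chromosome 12, 111271096 to 111276426) encodes amnionless, which carries cubilin to the cell surface, and is the shortest of the genes at 5331 bp. An H3.3 region of 771 bp (111272088 to 111272858) lay inside it, beginning 992 bp downstream of the start and covering 14.5% of the body. No H3K27ac region touched the gene. The 12 H3K27ac regions of the window were 20.4 kb or more away, with 4 of 312 to 1738 bp in Traf3, an immune signalling adaptor gene, and 8 of 269 to 2823 bp in the kinase gene Cdc42bpb. Cubn and Amn, whose products form a single receptor, therefore differed in both sets.

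**Figure D3:**
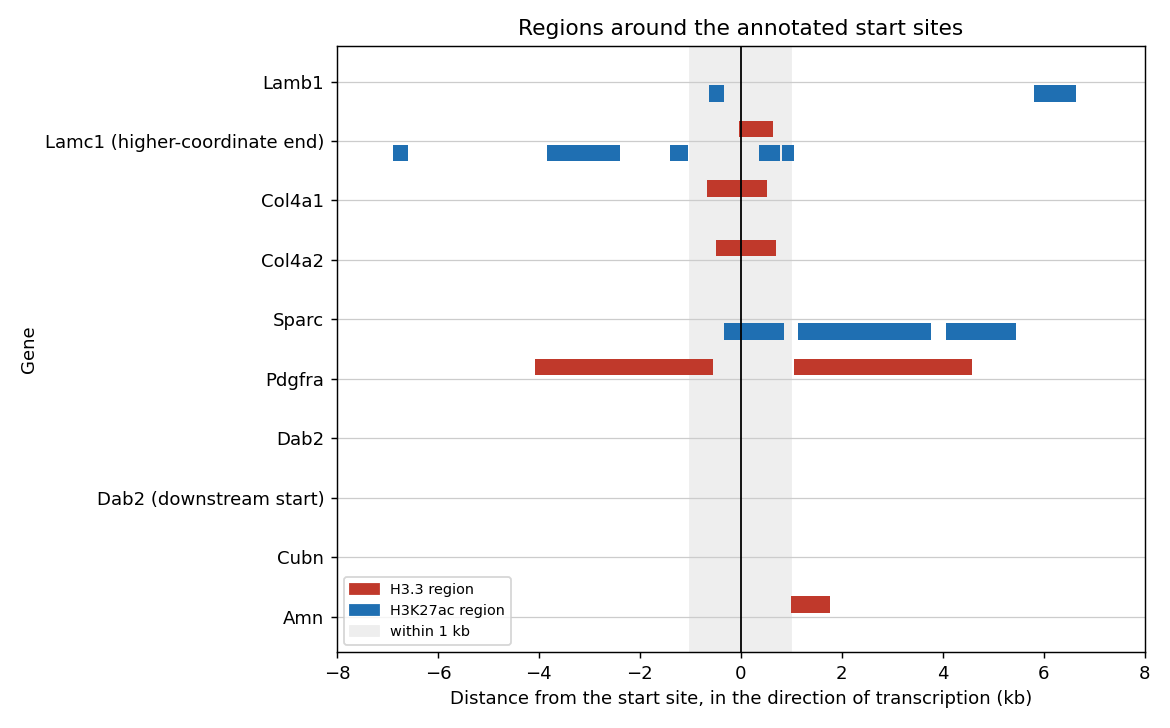
Regions within 8 kb of the annotated start sites, with distance in kb in the direction of transcription; for Lamc1 the zero is the higher-coordinate end of the gene and the x axis follows the coordinates. H3.3 (red) covers the starts of Col4a1 and Col4a2, flanks that of Pdgfra and lies inside Amn, H3K27ac (blue) covers the start of Sparc, and no region appears at Dab2 or Cubn.

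Start sites were taken for 8 of the 10 genes, and Lama1 and Lamc1 were described by their annotated ends. Within 1 kb of a start, H3.3 was present at Col4a1, Col4a2, Pdgfra and Amn (4 of 8), against 16.4% of 17492 protein-coding genes. H3K27ac was present there at Lamb1 and Sparc (2 of 8), against 36.2%. None of these 8 genes had both. The higher-coordinate end of Lamc1, for which no start site was taken, had both sets within 1 kb. The H3.3 count depends on the distance, since Pdgfra and Amn were reached only at 546 and 992 bp; within 500 bp it was 2 of 8, and those were the paired collagen genes with their shared region. The second Pdgfra region, at 1048 bp, fell just outside 1 kb. These distances run from the only Pdgfra start site taken, at 75152251. The first Pdgfra region covers the lower-coordinate end of the annotated gene, at 75151322, upstream of that site.

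The promoters also differed in base composition. The H3.3-covered promoters of Col4a1 and Col4a2 held 37 and 33 CpG dinucleotides in 300 bases and 74% and 73.7% G and C. Over 21263 promoters of protein-coding genes the median was 13 CpG, with quartiles of 4 and 24, and 7.29% and 11.3% hold as many as Col4a1 and Col4a2. Sparc, the acetylated one, held 4, and Pdgfra and Cubn held 5 each. Lamb1 held 18 and Amn 15. The Dab2 promoters held 2 at the upstream and 19 at the downstream start.

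Across all promoters, those touched by H3.3 had a median of 22 CpG and those not touched a median of 10. By CpG number, H3.3 touched 0.298% of promoters with 0 to 4 CpG, 3.42% with 5 to 9 (the class of Pdgfra and Cubn), 19% with 10 to 19, 24.6% with 20 to 29 and 14.2% with 30 or more (the class of Col4a1 and Col4a2). H3K27ac touched 5.53% of promoters with 0 to 4 CpG, the class of Sparc, and 36% of those with 20 to 29. The downstream Dab2 promoter and those of Lamb1 and Amn fell in the class of 10 to 19. H3K27ac touched 33.3% of that class and H3.3 19%. No region touched the 300 bases of any of the 3, which are too few to set against those shares. These shares describe promoters along the genome, many of which share a region.

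**Figure D4:**
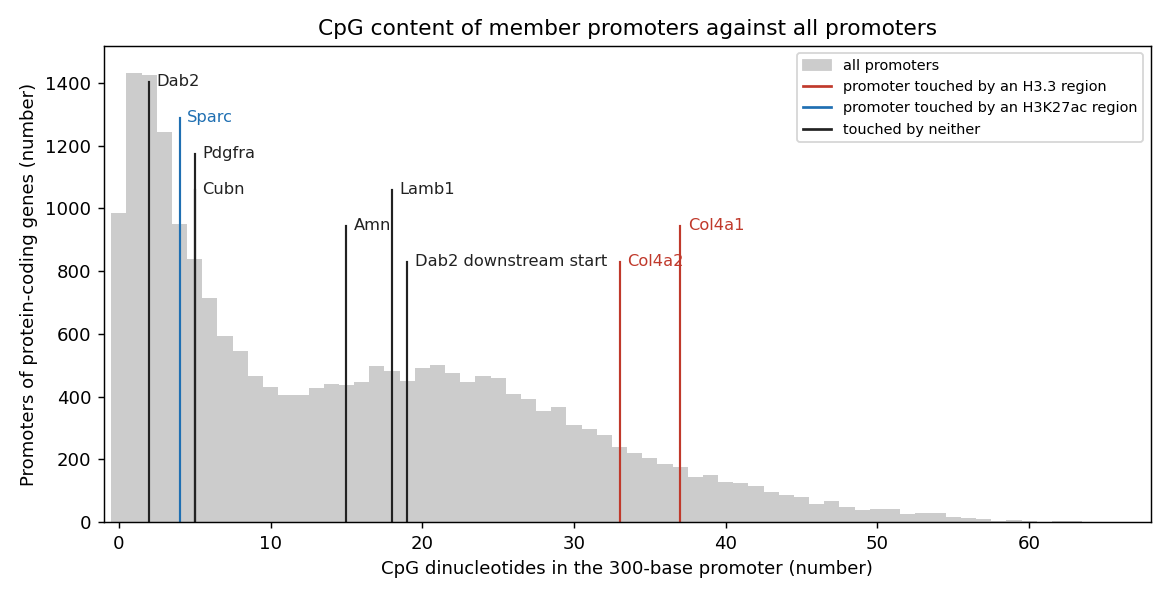
Number of CpG dinucleotides in 300-base promoters; grey bars count all 21263 promoters of protein-coding genes and vertical lines mark the 9 promoters of the members, coloured by the set that touches them (line height carries no value). Col4a1 and Col4a2, touched by H3.3, stand at 37 and 33, and Sparc, touched by H3K27ac, at 4.

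Short motifs were searched on both strands of the 9 promoters. The GC box GGGCGG occurred in those of Lamb1, Col4a1, Col4a2 and Amn, with 3 matches at Col4a2, and in 46.2% of all promoters. The same 4 promoters held CCAAT, present in 38.2% of all. A GATA motif (AGATAA or TGATAA) was found only in the upstream promoter of Dab2, with 2 matches, against 15.9% of all promoters, and TATAAA was found in none of the 9, against 12.6%. In the 78 bp common to Col4a1 and Col4a2, matches are shared by both genes.

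Related genes of the matrix were listed by name for comparison. Of the 8 other laminin chains, 4 had H3K27ac touching the body and 2 had H3.3, against 48.4% and 16.1% of all protein-coding genes. Lama5 and Lamb2 had 30 and 17 H3K27ac regions in their windows, of which 15 and 1 touched the gene body. Lama4 had neither set. The other 4 collagen IV chains, Col4a3, Col4a4, Col4a5 and Col4a6, which form tissue-restricted networks, had no region of either set touching the body. Of those 4 only Col4a3 had a region in its window, an H3K27ac region of 783 bp. The H3.3 region at the shared start of Col4a1 and Col4a2 was therefore the only one touching a collagen IV gene.

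Among other basement membrane genes, H3K27ac touched the body of 8 of 10 and H3.3 that of 4, against 48.4% and 16.1% of all protein-coding genes. Col18a1 (collagen XVIII) and Hspg2 (perlecan) had 44 and 37 H3K27ac regions in their windows, the largest numbers of that list. Of these, 31 and 24 touched the gene body. Smoc2 had neither set. Of 11 genes for collagen folding and modification 9 had H3K27ac touching the body and 1 had H3.3, P4hb. Matrix receptors had H3K27ac in 7 and H3.3 in 5 of 10 bodies. At Itgb1, the beta subunit common to the laminin and collagen integrins, the start carried 218 bp of H3.3 and an 889 bp stretch of H3K27ac.

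The general uptake machinery was listed beside Dab2, Cubn and Amn. H3K27ac touched the body of all 16 listed genes for clathrin, the AP-2 adaptor, LDL-family receptors and their partners, against 48.4% of all genes. Their median was 13 H3K27ac regions per window, against 4 over all genes. H3.3 touched 5 of the 16 bodies, against 16.1%. Of the 3 uptake members only Cubn had H3K27ac touching the body, and Amn had 12 H3K27ac regions in its window, all in neighbouring genes. Lrp2, which encodes megalin, the co-receptor of cubilin, had an H3.3 region of 1473 bp at its start and no H3K27ac there, with 6 H3K27ac regions in the window. Among the 5 other PDGF genes, Pdgfa, whose product binds the alpha receptor, had an H3.3 region of 1558 bp at its start without H3K27ac. Pdgfc, another ligand of that receptor, had an H3K27ac region of 4062 bp at its start and no H3.3.

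Among transcription factors of the primitive endoderm, H3.3 touched the body of 8 of 10, against 16.1% of all protein-coding genes. H3K27ac touched that of 2, Sall4 with 6 regions and Hnf4a with 1, against 48.4%. The widest H3.3 region in each of those 8 windows ranged from 741 bp at Sall4 to 4249 bp at Gata6, and Sox7 and Hnf4a had none. The H3.3 regions of Pdgfra, at 3531 and 3522 bp, and of Col4a1, at 1190 bp, lie within that range, and those of Lamc1 and Amn, at 673 and 771 bp, lie near or under its lower end. The difference between the lists was not tested.

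**Figure D5:**
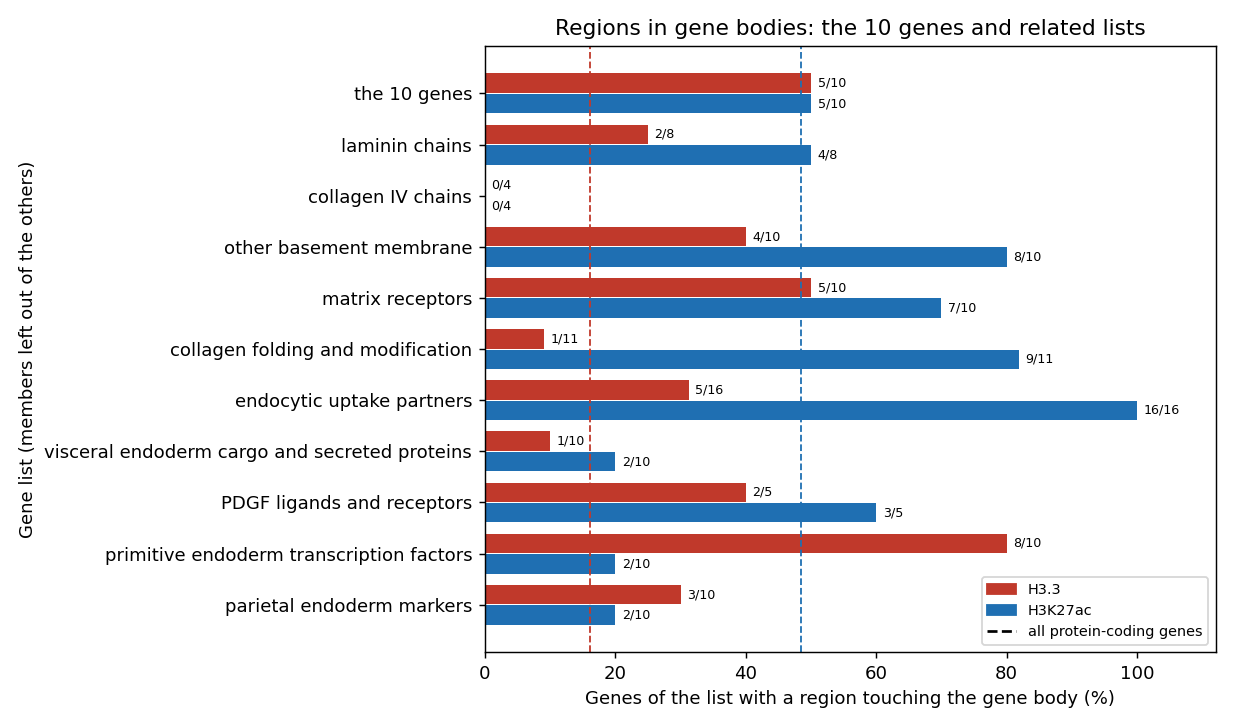
Percentage of genes with an H3.3 region (red) or an H3K27ac region (blue) touching the gene body, for the 10 genes and for 10 related lists from which the members were left out; numbers at the bars are counts. Dashed lines give all protein-coding genes, 16.1% for H3.3 and 48.4% for H3K27ac; the uptake partners stand at 16 of 16 for H3K27ac and the endoderm transcription factors at 8 of 10 for H3.3.

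The labelled cell type was compared with its markers in the same lists. H3K27ac touched the bodies of all 10 pluripotency markers, against 48.4% of all protein-coding genes. It lay at the start of 8 of the 9 with a start site, against 36.2%. The median share of their windows covered was 24.7%, against 2.84%. The 6 primitive endoderm regulators used as markers are also among the 10 transcription factors above, so they are not a separate set. H3K27ac touched the bodies of 1 of 6 primitive endoderm regulators and 0 of 6 trophoblast and 0 of 6 fibroblast markers. In their windows it was present at 3, 4 and 4 of 6, against 73.2%. H3.3 touched the bodies of 3 of 10 pluripotency markers, against 16.1% of all genes. It touched 4 of 6 primitive endoderm, 4 of 6 trophoblast and 1 of 6 fibroblast markers. In the windows, H3.3 was present at all 10 pluripotency markers, against 41.3% of all genes. It was present there at 4 of 6 primitive endoderm, 4 of 6 trophoblast and 2 of 6 fibroblast markers.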

How the data were processed

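The deposited files are 2 lists of CUT&RUN consensus regions, for H3.3 and H3K27ac, holding chromosome, start and end and no value per library. Per the submitters' processing notes, the tools were Bowtie2, SAMtools, deepTools and MACS2 and the build mm10; neither versions nor roles are stated. How libraries and genotypes were combined is not given in the sources used here. Per the labels' protocols, H3.3 was cut with protein A/G and H3K27ac with protein A micrococcal nuclease, under different salt, so numbers of regions do not compare the targets.

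Starts were made 1-based, and 16 H3.3 and 13 H3K27ac regions off the assembled chromosomes were left out. Genes came from RefSeq GRCm38.p6 and start sites from its promoter sequences (17492 genes with one); exons and introns were not placed. A region counted when 1 bp or more lay in the window. Shares of all protein-coding genes with as many or more give ranks. Interval code in Python 3.11.15 (pandas 2.3.3) was tested on simulated data. The members, lists and alternatives were chosen with earlier results of these data known. All 10 members are named; other genes are named where they hold a region of a window, or from the related lists, where the choice of examples was made after their values were seen.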

Additional observations from a re-analysis of the deposited data

How the results depend on the processing

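No statistical test was run, so no call could be lost; counts were recomputed under other settings, and 41 of 58 values were within 1.5 times the reported count. With the gene body alone, 10 kb or 25 kb either side there were 5 H3.3 regions, of which 1 touched H3K27ac, in place of 9 and 3. H3K27ac regions fell from 78 to 46 in gene bodies and 51 with 10 kb, and rose to 121 with 100 kb. Genes with both sets fell from 4 to 1 in gene bodies or with 10 kb, and to 2 with 25 kb. With the wider 50% of each set, 38 H3K27ac regions were left, and H3K27ac was at 1 start (Sparc) in place of 2. Within 500 bp of a start site that was taken, H3.3 was at 2 genes in place of 4. The next settings were chosen after seeing the data. Without Lamc1 there were 38 H3K27ac regions. Without regions that touch another protein-coding gene and not the member, 2 genes kept both sets (Lamc1 and Sparc). The H3.3 region 1 bp from G3bp1 is still counted for Sparc there. No paired analysis was possible because the lists hold no value per library. Depth is unknown, so an absent region may be one that was not detectable.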

Other observations

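Visceral endoderm genes were also listed, all but Cited1 encoding carrier and serum proteins secreted by the tissue that later surrounds the embryo. They had H3K27ac touching the body of 2 of 10, against 48.4% of all protein-coding genes. H3.3 touched 1 of 10, against 16.1%, and that was Cited1, with a region of 195 bp at its start. Cited1 does not encode a secreted protein. Afp, Apob and Fgb had neither set in the window, like Dab2. Apoe, which encodes an apolipoprotein of many tissues, had an H3K27ac region of 7059 bp at its start. Parietal endoderm markers had H3K27ac touching the body of 2 of 10 and H3.3 that of 3, and Thbd had neither set in its window.

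As the flank grew from 0 to 100 kb, H3.3 reached a growing share of protein-coding genes, from 16.1% to 51.9%, and the number of members from 5 to 6. For H3K27ac the share rose from 48.4% to 80.5%, and the number of members from 5 to 8.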
